A study of Mus musculus with 2 samples.

Results

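The genes described here were 34 genes transcribed in and around S phase, the part of the cell cycle in which the genome is copied. They were taken by gene symbol from a list that was drawn up with earlier results of these data known, with no measured value in the rule, and all 34 were among the 32285 features of both libraries. The list left out the MCM helicase, although 1 member, Gins2, encodes a subunit of the GINS complex that joins MCM and CDC45 in the active helicase. By role it held 3 genes of nucleotide supply, 9 of polymerases, the sliding clamp and the fork, 5 of licensing and its control, 3 of the fork checkpoint, 4 of repair and 10 of histones and chromatin.

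Replication starts when the kinase CDC7, with its partner DBF4, phosphorylates the MCM helicase loaded at origins. The opened DNA is then copied by polymerases that are held by the PCNA clamp, fed by ribonucleotide reductase and thymidylate synthase, and followed by factors that rebuild chromatin. Many of these genes are transcribed together at the passage from G1 into S phase under E2F factors, and their transcripts decline as cells pass through G2 and mitosis. A resting macrophage would therefore carry them at lower levels than a tumour cell line or a dividing T cell.

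The study transplanted J558 cells, a mouse plasmacytoma line of BALB/c origin, under the skin of female BALB/c mice. One allograft came from a mouse given 0.5% methylcellulose, the vehicle, and the other from a mouse given TAK-931, a CDC7 inhibitor, at 60 mg/kg orally once a day, and both were taken at day 6. Tumours were dissociated into single cells and sequenced with 10x Genomics 3′ chemistry. The comparison asks how the tumour cells and the host cells around them differed under CDC7 inhibition. With 1 library per group there was no replicate and no test. Every interval below is a 95% interval for counting error only (Poisson for a level, conditional binomial for a ratio, Clopper-Pearson for a share), and a difference between the treatments cannot be told apart from a difference between the 2 tumours.

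The vehicle library held 144767193 UMIs over 4565 barcodes and the TAK-931 library 77369283 UMIs over 6558 barcodes. A filter on genes (over 2000) and on mitochondrial UMIs (under 15%) left 3441 and 3488 cells with medians of 40504 and 15097 UMIs. The libraries shared 8 barcodes, 1 of them among kept cells. Marker gates put 3015 vehicle and 116 TAK-931 cells in a J558-like class, 226 and 2169 in a monocyte/macrophage-like class and 12 and 652 in a T-like class. Smaller classes held 79 and 172 endothelial-like and 26 and 60 fibroblast-like cells. The J558-like cells carried the plasma cell gene Sdc1 at 132 CPM in vehicle and 142 CPM in TAK-931, and the immunoglobulin genes Igha and Iglc1 at 9197 and 63319 CPM in vehicle and 8780 and 68436 CPM in TAK-931, where CPM is UMIs per 1000000 UMIs of the class. Other plasma cell genes were further apart, with Jchain at 2849 and 7343 CPM and Tnfrsf17 at 39.9 and 99.7 CPM. The label calls the line a B lymphocyte, yet the B cell gene Pax5 had 8 UMIs in the J558-like cells of vehicle and 0 in those of TAK-931. Another B cell gene, Ms4a1, was present, with 2903 UMIs in vehicle (44.8% of cells) and 272 UMIs in TAK-931 (67.2% of cells).

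Promoters of 5 members on which the results below turn are shown first. Cdc6 and Dtl belong to the control group that differed most in the tumour class, Pola1 was lower in TAK-931 in each of the 3 main classes, and Rrm2 and Tyms had the largest differences in the monocyte/macrophage-like class. Each run is the 250 bases before the annotated start, 5′ to 3′ on the gene's strand, from RefSeq on GRCm38.p6, and capitals mark a word read by E2F factors (TTTCGCGC, TTTGGCGC, TTTCCCGC or TTTGCCGC on either strand).
Cdc6, chr11:98907901-98908150, + strand: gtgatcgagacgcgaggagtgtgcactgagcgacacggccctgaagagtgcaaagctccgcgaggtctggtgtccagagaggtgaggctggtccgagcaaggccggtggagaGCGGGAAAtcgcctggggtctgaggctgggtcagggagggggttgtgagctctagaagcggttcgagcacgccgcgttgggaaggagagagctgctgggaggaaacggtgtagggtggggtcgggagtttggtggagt
Dtl, chr1:191575545-191575794, - strand: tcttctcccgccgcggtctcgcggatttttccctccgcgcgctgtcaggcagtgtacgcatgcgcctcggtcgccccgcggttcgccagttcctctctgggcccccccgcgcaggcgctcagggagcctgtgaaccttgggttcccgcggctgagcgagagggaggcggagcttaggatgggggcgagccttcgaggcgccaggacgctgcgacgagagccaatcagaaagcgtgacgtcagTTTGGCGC
Pola1, chrX:93632156-93632405, - strand: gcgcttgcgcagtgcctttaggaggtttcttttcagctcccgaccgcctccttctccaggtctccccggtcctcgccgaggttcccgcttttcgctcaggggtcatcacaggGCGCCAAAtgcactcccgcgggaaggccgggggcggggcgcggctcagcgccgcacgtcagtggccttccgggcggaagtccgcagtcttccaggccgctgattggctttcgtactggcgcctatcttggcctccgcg
Rrm2, chr12:24708004-24708253, + strand: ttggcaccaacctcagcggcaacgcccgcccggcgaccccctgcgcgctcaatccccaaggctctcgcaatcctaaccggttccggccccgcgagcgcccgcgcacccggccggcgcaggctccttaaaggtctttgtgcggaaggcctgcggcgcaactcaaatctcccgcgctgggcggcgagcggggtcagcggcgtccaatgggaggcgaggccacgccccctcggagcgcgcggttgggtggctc
Tyms, chr5:30073626-30073875, - strand: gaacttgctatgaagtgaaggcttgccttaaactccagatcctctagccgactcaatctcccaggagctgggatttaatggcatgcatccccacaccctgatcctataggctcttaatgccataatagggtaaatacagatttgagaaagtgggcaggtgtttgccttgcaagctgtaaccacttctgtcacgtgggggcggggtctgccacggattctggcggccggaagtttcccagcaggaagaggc

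Of these 5 runs, those of Cdc6, Dtl and Pola1 held 1 word each, and those of Rrm2 and Tyms held none. Promoter windows of 300 bases, which add 50 bases after the start, were matched for 25 of the 34 members (73.5%), and 10 of the 25 held a word (Casp8ap2, Cdc6, Cdca7, Clspn, Dtl, Hells, Pola1, Pold3, Ubr7 and Uhrf1). Across all protein-coding genes with a window, 575 of 17492 (3.29%) held one. Since under 80% of the members had a window, their share is given as a count and was not compared with that background. Of the members with 1 match, Cdc6 was higher and Pola1 lower in J558-like TAK-931 cells.

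In the J558-like cells the S phase genes stood somewhat higher in TAK-931 than in vehicle when all cells were summed, but lower in cells with 40000 to 60000 UMIs (log2 ratio -0.30) and in those above 100000 UMIs. Their summed level was 1893 CPM (1886 to 1900) in vehicle and 2279 CPM (2247 to 2312) in TAK-931, a log2 ratio of 0.27 (0.25 to 0.29). Of the 34 members, 24 were higher and 10 lower, and their median log2 ratio was 0.27, beside 0.014 over all 11416 genes counted in the class. A gene was counted where at least 5 UMIs were expected in each library. At least 1.5-fold higher were 6 of the 34 (Ccne2, E2f8, Exo1, Fen1, Rpa2 and Cdc6), where 14.5% of all counted genes were. None was at least 1.5-fold lower (0 of 34), where 11.3% of all counted genes were. The 10 cells with the most member UMIs held 23.0% of the TAK-931 member UMIs in this class and 1.51% of the vehicle ones, and without the 10 top cells of each library the log2 ratio of the sums was 0.14. That trim is unequal, since 10 cells are 0.332% of the class in vehicle and 8.62% in TAK-931. With the top 5% of cells left out in each library (151 vehicle and 6 TAK-931 cells) the log2 ratio was 0.33.

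The tumour class did not hold the same clusters in each library in the same shares. When all kept cells were clustered, the largest cluster of vehicle cells held 43.5% of the vehicle and 19.0% of the TAK-931 J558-like cells, at 839 CPM (831 to 847) and 1327 CPM (1264 to 1392). A cluster with 35.1% and 28.4% of them was also higher in TAK-931, at 2706 CPM (2693 to 2720) in vehicle and 2918 CPM (2858 to 2979) in TAK-931. A cluster with 18.2% and 24.1% was at 2044 CPM (2027 to 2061) and 1988 CPM (1932 to 2044), and a cluster with 2.99% and 12.9% at 2061 CPM (1984 to 2141) and 1395 CPM (1270 to 1528). A further 11.2% of the TAK-931 cells, at 2521 CPM (2433 to 2612), lay in a cluster with no vehicle cell of the class. The order of the libraries thus differed between clusters of the tumour class.

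The licensing and control genes differed most. Together they measured 231 CPM in vehicle and 351 CPM in TAK-931, a log2 ratio of 0.60 (0.55 to 0.66), and all 5 were higher. Sums of role groups moved with the top cells. Of the 12 such sums in this and the monocyte/macrophage-like class, 1 stayed inside its interval without the 10 top cells of each library. Without the top 5% of cells 3 did, and 8 kept their sign in both settings. Ccne2, cyclin E2, which activates CDK2 at the entry into S phase, measured 17.9 CPM (17.1 to 18.6) in vehicle and 51.7 CPM (46.9 to 56.7) in TAK-931. Its log2 ratio of 1.53 (1.38 to 1.68) was the highest of the list in this class. E2f8, a repressor of the E2F family that is itself made in S phase, measured 7.85 CPM (7.38 to 8.34) and 14.4 CPM (11.9 to 17.2), with a log2 ratio of 0.87. Cdc6 loads the MCM helicase on origins. It measured 31.1 CPM (30.2 to 32.1) and 48.3 CPM (43.7 to 53.2), with a log2 ratio of 0.63. Gmnn, geminin, which blocks a second loading, was among the most abundant members at 120 CPM (118 to 122) and 163 CPM (155 to 172), with a log2 ratio of 0.45. Dtl, the substrate receptor of the ligase that removes CDT1 during replication, measured 54.7 CPM (53.5 to 56.0) and 73.7 CPM (68.1 to 79.7), with a log2 ratio of 0.43.

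Nucleotide supply did not move as 1 block in the tumour class. Rrm2, the small subunit of ribonucleotide reductase, measured 143 CPM (141 to 145) in vehicle and 211 CPM (201 to 221) in TAK-931. Rrm1, its large subunit, measured 62.6 CPM (61.3 to 64.0) and 78.9 CPM (73.0 to 85.1). Tyms, thymidylate synthase, which makes dTMP, measured 51.6 CPM (50.4 to 52.8) and 50.4 CPM (45.7 to 55.4), a ratio whose interval included 0. The log2 ratio of the sums of the 3 genes was 0.40, with 0.13 without the 10 top cells of each library and 0.43 without the top 5%.

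The genes of polymerases, clamp and fork were split, with 4 higher and 5 lower. Fen1, the flap nuclease that trims Okazaki fragments, measured 47.1 CPM (46.0 to 48.3) in vehicle and 77.7 CPM (71.9 to 83.9) in TAK-931, a log2 ratio of 0.72. Rpa2, a subunit of the protein that coats single strands, measured 30.1 CPM (29.2 to 31.1) and 49.4 CPM (44.8 to 54.4), with a log2 ratio of 0.71. Pcna, the clamp, measured 175 CPM (172 to 177) and 224 CPM (215 to 235), with a log2 ratio of 0.36. These 3 genes, with Gins2 at 20.5 and 25.6 CPM, were the members of the group that were higher. Prim1, the primase subunit that lays down the RNA primer, measured 57.3 CPM (56.0 to 58.6) and 40.2 CPM (36.1 to 44.7), with a log2 ratio of -0.51 (-0.67 to -0.35). Pola1, the catalytic subunit of the polymerase bound to primase, measured 17.3 CPM (16.6 to 18.0) and 12.2 CPM (9.92 to 14.7), also -0.51 (-0.81 to -0.23). Their partners outside the list did not share this: Prim2, the other primase subunit, measured 25.3 CPM in vehicle and 35.2 CPM in TAK-931, with a log2 ratio of 0.48 (0.30 to 0.65), and Pola2 25.7 and 28.5 CPM. Pold3, a subunit of polymerase delta, measured 25.4 and 24.9 CPM, Rfc2, a subunit of the clamp loader, 62.1 and 59.3 CPM, and Dscc1, of the alternative loader that acts in cohesion, 5.77 and 4.60 CPM. The log2 ratios of these 3 had intervals that included 0.

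In the fork checkpoint group, Clspn, claspin, which passes the stress signal to the kinase CHK1, measured 47.8 CPM (46.6 to 49.0) in vehicle and 70.7 CPM (65.1 to 76.6) in TAK-931. Usp1, a deubiquitinase that acts on PCNA and FANCD2, measured 74.8 CPM (73.3 to 76.3) and 86.2 CPM (80.1 to 92.7). Tipin, a fork protection protein, measured 105 CPM (104 to 107) and 108 CPM (101 to 115). The log2 ratios of the 3 were 0.56, 0.21 and 0.03, and the interval of Tipin's included 0. Without the 10 top cells of each library Clspn was at 0.32 and Usp1 at 0.02, and the sums of the 3 genes, at 0.22 in all cells, were at 0.06, and at 0.25 without the top 5%.

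Of the repair genes, Exo1, a nuclease that resects DNA ends, measured 15.6 CPM (14.9 to 16.3) in vehicle and 27.2 CPM in TAK-931, a log2 ratio of 0.80 (0.60 to 1.00). Ung, which removes uracil from DNA, measured 21.2 CPM (20.4 to 22.0) and 26.7 CPM (23.3 to 30.4). The helicase gene Blm measured 28.6 and 31.1 CPM and Rad51ap1, which acts in homologous recombination, 27.7 and 30.8 CPM, with log2 ratios of 0.12 and 0.16 whose intervals included 0. All 4 point estimates were higher in TAK-931.

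Of the histone and chromatin genes 6 were higher and 4 lower. Hells, a chromatin remodeller that supports DNA methylation, measured 78.1 CPM (76.7 to 79.7) in vehicle and 114 CPM (107 to 122) in TAK-931, a log2 ratio of 0.55. Its partner Cdca7 went the other way, at 21.4 CPM (20.6 to 22.2) and 16.8 CPM (14.1 to 19.7), with a log2 ratio of -0.35. Nasp, a histone chaperone and the most abundant member in vehicle, measured 200 CPM (197 to 202) and 171 CPM (162 to 180), with a log2 ratio of -0.23. Ubr7, annotated as a ubiquitin ligase of chromatin, measured 44.0 CPM (42.9 to 45.1) and 36.8 CPM (32.8 to 41.1), with a log2 ratio of -0.26. Uhrf1, which guides DNA methylation to new strands, Atad2, a bromodomain ATPase, Slbp, which binds the stem loop of histone transcripts, and Casp8ap2, which acts in histone gene expression, had log2 ratios between 0.22 and 0.30. Chaf1b, a subunit of the histone loader CAF-1, measured 24.6 and 23.0 CPM, and Wdr76 measured 15.5 and 18.4 CPM. The log2 ratio of the group's sums was 0.10, with 0.0069 without the 10 top cells of each library and 0.18 without the top 5%.

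**Figure D1:**
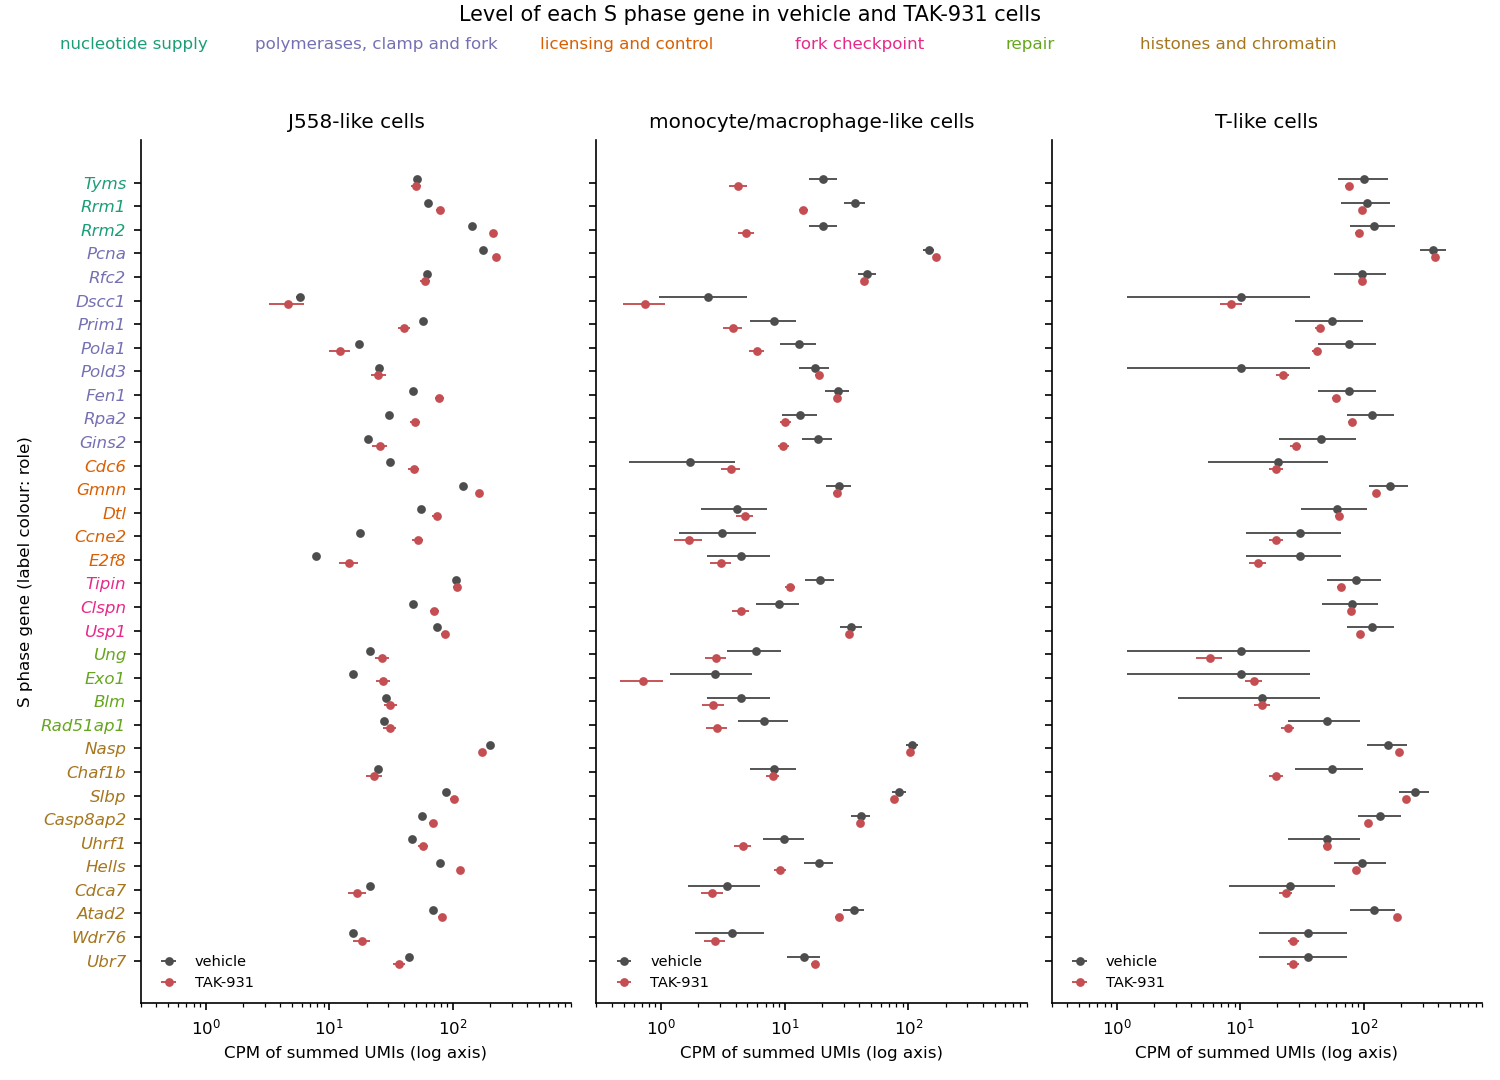
Level of each of the 34 S phase genes, in CPM of summed UMIs on a log axis, in vehicle (grey) and TAK-931 (red) cells of the 3 main classes, with 95% Poisson intervals; genes are ordered and coloured by role. In J558-like cells most red points lie slightly to the right of the grey ones, in monocyte/macrophage-like cells Tyms, Rrm1 and Rrm2 lie far to the left, and in T-like cells the vehicle intervals, from 12 cells, are wide.

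The tumour class differed in depth as well, with a median of 42401 UMIs per J558-like cell in vehicle and 74889.5 in TAK-931, and the level of the S phase genes moved with depth. Vehicle cells with 20000 to 40000 UMIs (1112 cells) measured 1080 CPM of members and those with 40000 to 60000 UMIs (1306 cells) measured 2287 CPM. Within ranges of depth the libraries did not keep 1 order. In cells with 40000 to 60000 UMIs the TAK-931 level was lower, at 1856 CPM (1753 to 1963, 13 cells) beside 2287 CPM (2275 to 2299) in vehicle, a log2 ratio of -0.30. In cells with 60000 to 100000 UMIs it was higher, at 2638 CPM (2589 to 2688, 53 cells) beside 2048 CPM (2031 to 2064, 407 cells), with a log2 ratio of 0.37. Above 100000 UMIs it was lower again, at 2047 CPM in 25 cells beside 2262 CPM in 23 cells. Under 20000 UMIs it was 1814 CPM (15 cells) beside 1633 CPM (167 cells), and at 20000 to 40000 UMIs 1008 CPM (10 cells) beside 1080 CPM, with overlapping intervals in both. The range of 60000 to 100000 UMIs held 45.7% of the TAK-931 cells and 13.5% of the vehicle cells.

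**Figure D2:**
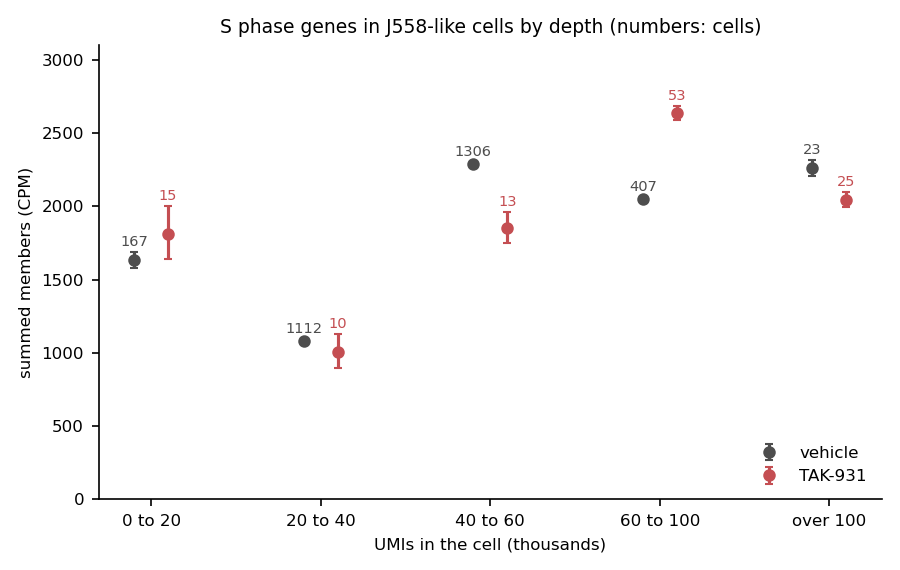
Summed level of the 34 S phase genes in J558-like cells (y axis, CPM, with 95% Poisson intervals) by the number of UMIs in the cell (x axis, in units of 1000), vehicle in grey and TAK-931 in red, with the number of cells above each point. The TAK-931 point is above the vehicle point in cells with 60000 to 100000 UMIs and below it in cells with 40000 to 60000 and in those above 100000; in the 2 lowest ranges the intervals overlap.

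Transcripts of other cells were also unequal in this class. The 5 T cell markers summed to 1.22 CPM in vehicle and 177 CPM in TAK-931 J558-like cells, and the 10 monocyte/macrophage markers to 18.2 and 195 CPM, with none of the markers of either list at 0 UMIs. In TAK-931, 16 of the 116 cells carried at least 100 CPM of the T cell list, beside 3 of 3015 in vehicle. Without these cells the log2 ratio of the summed S phase genes was 0.24.

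The per-cell score counted the member UMIs in each cell after every cell was thinned at random to 4000 UMIs, and a cell with at least 5 was called S-high. No kept cell was too shallow for this. In the J558-like class 59.5% (57.8 to 61.3) of vehicle cells and 80.2% (71.7 to 87.0) of TAK-931 cells were S-high, a difference of 20.6 percentage points (12.3 to 27.1). A single thinning is itself a draw. Averaged over all possible thinnings, by the hypergeometric probability of each cell, the shares were 59.0% and 73.4%, a difference of 14.4 points. Without thinning, at the same ratio of member UMIs to all UMIs, they were 55.2% and 76.7%. The score is a range and not a class of its own: 259 vehicle cells stood at exactly 5 and 276 at 4, and in TAK-931 the numbers were 14 and 7. A cut at 8 gave 37.8% and 47.4%. Averaged over all thinnings, the share was 75.2% in vehicle and 60.4% in TAK-931 among cells with 40000 to 60000 UMIs, and 78.3% and 82.4% among those with 60000 to 100000, so the order of the libraries again turned with depth.

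A count of G2/M genes made in the same way, over 52 genes with a cut at 5, called 85.6% of vehicle and 91.4% of TAK-931 J558-like cells high. Of all cells of the class, 56.9% in vehicle and 78.4% in TAK-931 were high for both scores, and 28.7% and 12.9% for G2/M alone. The 2 scores were not independent, since both were read from the same cells and nearly all S-high vehicle cells (95.7%) were also G2/M-high. The phase of a cell was not read from them.

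**Figure D3:**
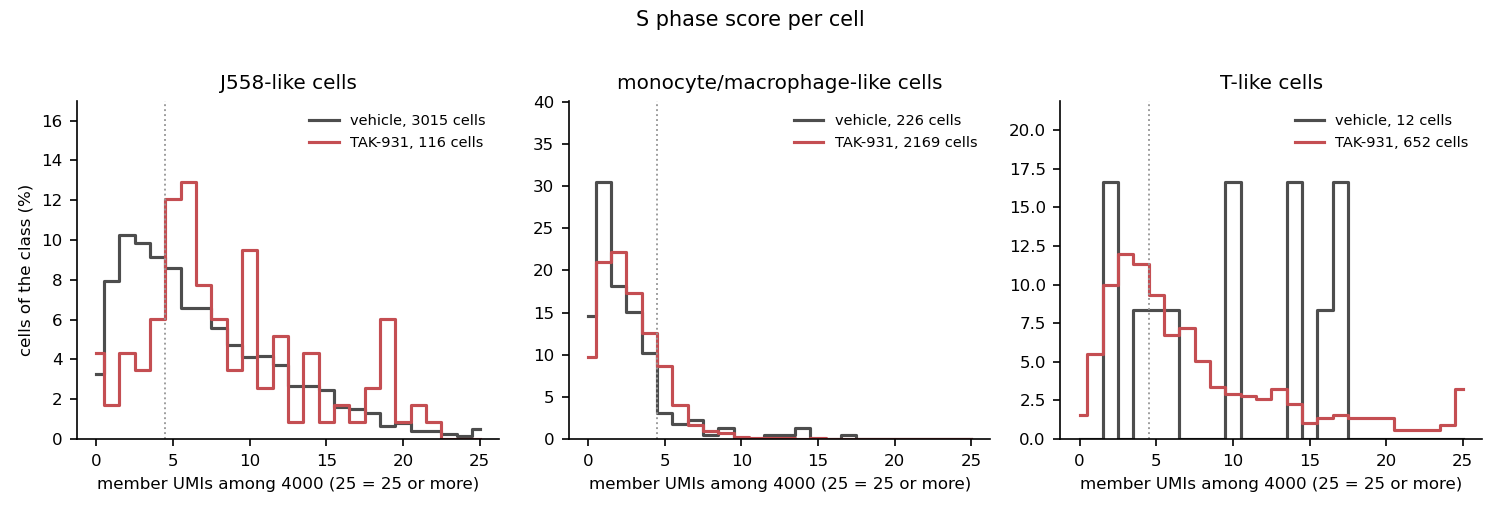
Share of cells (y axis, percent of the class) by the number of UMIs of the 34 S phase genes among 4000 UMIs of the cell (x axis) in the 3 main classes, vehicle in grey and TAK-931 in red; the dotted line marks the cut at 5. In J558-like cells the TAK-931 curve has fewer cells at 1 to 4 UMIs, most monocyte/macrophage-like cells of both libraries lie below the cut, and the 12 vehicle T-like cells give single steps.

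In the monocyte/macrophage-like cells the summed S phase genes were lower in TAK-931 when all cells were summed, and the nucleotide supply genes most. The summed level was 820 CPM (787 to 853) in vehicle and 698 CPM (690 to 707) in TAK-931, a log2 ratio of -0.23 (-0.29 to -0.17), and of the 32 members counted 5 were higher and 27 lower, with a median of -0.44. The median over all 10579 genes counted in the class was -0.015. At least 1.5-fold lower were 14 of the 32, where 17.2% of all counted genes were, and 1 (Cdc6) was at least 1.5-fold higher, where 17.1% were. Fewer of the 14 remained with at least 20 UMIs expected, a setting that counts fewer members. Of the 14, Rrm1, Pola1, Uhrf1, Clspn, Ung, Tipin and Hells fell under 1.5-fold without the 10 cells with the most member UMIs in each library. The 10 vehicle cells with the most member UMIs held 33.8% of the vehicle total in this class. Without the 10 top cells of each library, which are 4.42% of the vehicle and 0.461% of the TAK-931 cells, the log2 ratio of the sums was 0.14. With an equal trim of the top 5% (12 vehicle and 109 TAK-931 cells) it was 0.06. Both lie on the other side of 0, so the direction of the summed level changed when the cells with the most member UMIs were left out. The count of higher and lower members was read from all cells and rests on those cells too. Without the 10 top cells Rad51ap1 and Atad2 turned above 0, as did the sums of the licensing, fork checkpoint and chromatin groups. No direction was read from that count.

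The class did not hold the same clusters in each library. When all kept cells were clustered, 38.1% of the vehicle cells of the class lay in a cluster with no TAK-931 cell of the class, at 887 CPM (839 to 937) of members. The cluster that held most of the TAK-931 cells (53.7%) held 16.4% of the vehicle cells, at 805 CPM (724 to 892) in vehicle and 679 CPM (668 to 690) in TAK-931. A further cluster with 39.8% of the vehicle and 38.4% of the TAK-931 cells had the other order, at 571 CPM (519 to 627) and 691 CPM (676 to 708). The order of the libraries thus differed between clusters.

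The nucleotide supply genes carried the largest differences, and these kept their direction without the 10 top cells. Tyms measured 20.6 CPM (15.7 to 26.5) in vehicle and 4.20 CPM (3.56 to 4.93) in TAK-931, a log2 ratio of -2.29 (-2.73 to -1.83), and -1.72 without those cells. Rrm2 measured 20.6 CPM (15.7 to 26.5) and 4.89 CPM (4.20 to 5.67), with a log2 ratio of -2.07, and -1.49 without them. Rrm1 measured 36.7 CPM (30.0 to 44.3) and 14.1 CPM (12.9 to 15.4), with a log2 ratio of -1.38, and -0.51 without them. The counts behind the vehicle values are small, with 60 UMIs each for Tyms and Rrm2 and 107 for Rrm1 over 226 cells. Summed over the 3 genes the log2 ratio was -1.74, with -0.98 without the 10 top cells and -1.45 without the top 5% of each library. With classes taken from Leiden clusters it was -1.16, and Tyms was at -1.68, Rrm2 at -1.25 and Rrm1 at -0.86.

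The abundant members of this class barely differed. Pcna, at 145 CPM (132 to 160) and 166 CPM (162 to 171), was slightly higher in TAK-931. Nasp measured 107 and 103 CPM, Slbp 84.3 and 76.2 CPM, Rfc2 46.6 and 44.0 CPM and Casp8ap2 41.1 and 40.8 CPM, all 4 with log2 ratios whose intervals included 0. These 5 genes made up 51.7% of the vehicle and 61.6% of the TAK-931 member UMIs of the class. The summed level is therefore mostly the level of genes that were nearly equal between the libraries.

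Of the fork genes, 3 had ratios below 0 with intervals that left 0 out. Prim1 measured 8.22 CPM (5.27 to 12.2) and 3.79 CPM (3.19 to 4.48), Pola1 13.0 CPM (9.21 to 17.9) and 5.94 CPM (5.17 to 6.78) and Gins2 18.5 CPM (13.9 to 24.1) and 9.73 CPM (8.74 to 10.8). The log2 ratio of Pola1 was -1.13, and -0.43 without the 10 top cells. Rpa2 measured 13.4 and 10.1 CPM, Fen1 26.7 and 26.7 CPM and Pold3 17.5 and 19.1 CPM, each with a ratio whose interval included 0. Pold3, with Pcna, Cdc6, Dtl and Ubr7, was among the 5 members whose point estimate was higher. Dscc1, with 7 and 27 UMIs, was not counted.

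The licensing and control genes summed to 40.8 CPM in vehicle and 39.5 CPM in TAK-931, a log2 ratio of -0.05 (-0.32 to 0.24). Without the 10 top cells it was 0.62 and without the top 5% of each library 0.40, so this group's value depended on few cells. Cdc6 measured 1.71 CPM (0.56 to 4.00) and 3.66 CPM (3.06 to 4.33), from 5 vehicle UMIs, so its log2 ratio of 1.09 had an interval from -0.16 to 2.74. Ccne2 measured 3.08 and 1.68 CPM, E2f8 4.45 and 3.05 CPM, Dtl 4.11 and 4.75 CPM and Gmnn 27.4 and 26.3 CPM, and each of these ratios also had an interval that included 0. The difference between the classes in this group was not tested.

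With all cells summed, most counted members of the remaining groups had ratios below 0, but this rested on few cells. The sums of the fork checkpoint and of the histone and chromatin genes, at -0.37 and -0.17, turned to 0.08 and 0.14 without the 10 top cells. Clspn, at 8.91 CPM (5.82 to 13.0) and 4.40 CPM (3.74 to 5.13), and Tipin, at 19.2 CPM (14.5 to 24.9) and 11.0 CPM (9.97 to 12.2), were both lower, while Usp1 measured 34.6 and 33.1 CPM. The repair genes Rad51ap1, at 6.85 CPM (4.18 to 10.6) and 2.83 CPM (2.31 to 3.43), and Ung, at 5.82 CPM (3.39 to 9.32) and 2.78 CPM (2.26 to 3.37), were lower, and Rad51ap1 had a log2 ratio of 0.35 without the 10 top cells. Blm measured 4.45 and 2.64 CPM, with a ratio whose interval included 0, and Exo1, with 8 and 26 UMIs, was not counted. Hells measured 18.8 CPM (14.2 to 24.5) and 9.18 CPM (8.22 to 10.2) and Uhrf1 9.93 CPM (6.65 to 14.3) and 4.59 CPM (3.92 to 5.34), both about as far apart as Clspn. Without the 10 top cells the log2 ratio of Hells was -0.10, of Uhrf1 -0.49, of Clspn -0.36, of Tipin -0.17 and of Ung -0.28. Atad2 measured 36.3 CPM (29.7 to 43.9) and 27.4 CPM (25.7 to 29.1), with a log2 ratio of -0.41, and 0.19 without the top cells. Chaf1b, Cdca7, Wdr76 and Ubr7 had log2 ratios of -0.04, -0.41, -0.47 and 0.29 with intervals that included 0.

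Tumour transcripts were unequal in this class too. The 7 J558 markers summed to 150 CPM in vehicle and 38.7 CPM in TAK-931 monocyte/macrophage-like cells, with none at 0 UMIs. From the level of the tumour immunoglobulin transcripts, free RNA would account for 87.3 CPM of members in vehicle and 45.9 CPM in TAK-931, and with these subtracted the log2 ratio of the sums was -0.17. The T cell list summed to 2.40 CPM in vehicle, with Cd3d and Cd3g at 0, and to 68.7 CPM in TAK-931, and its part in the result was not tested.

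**Figure D4:**
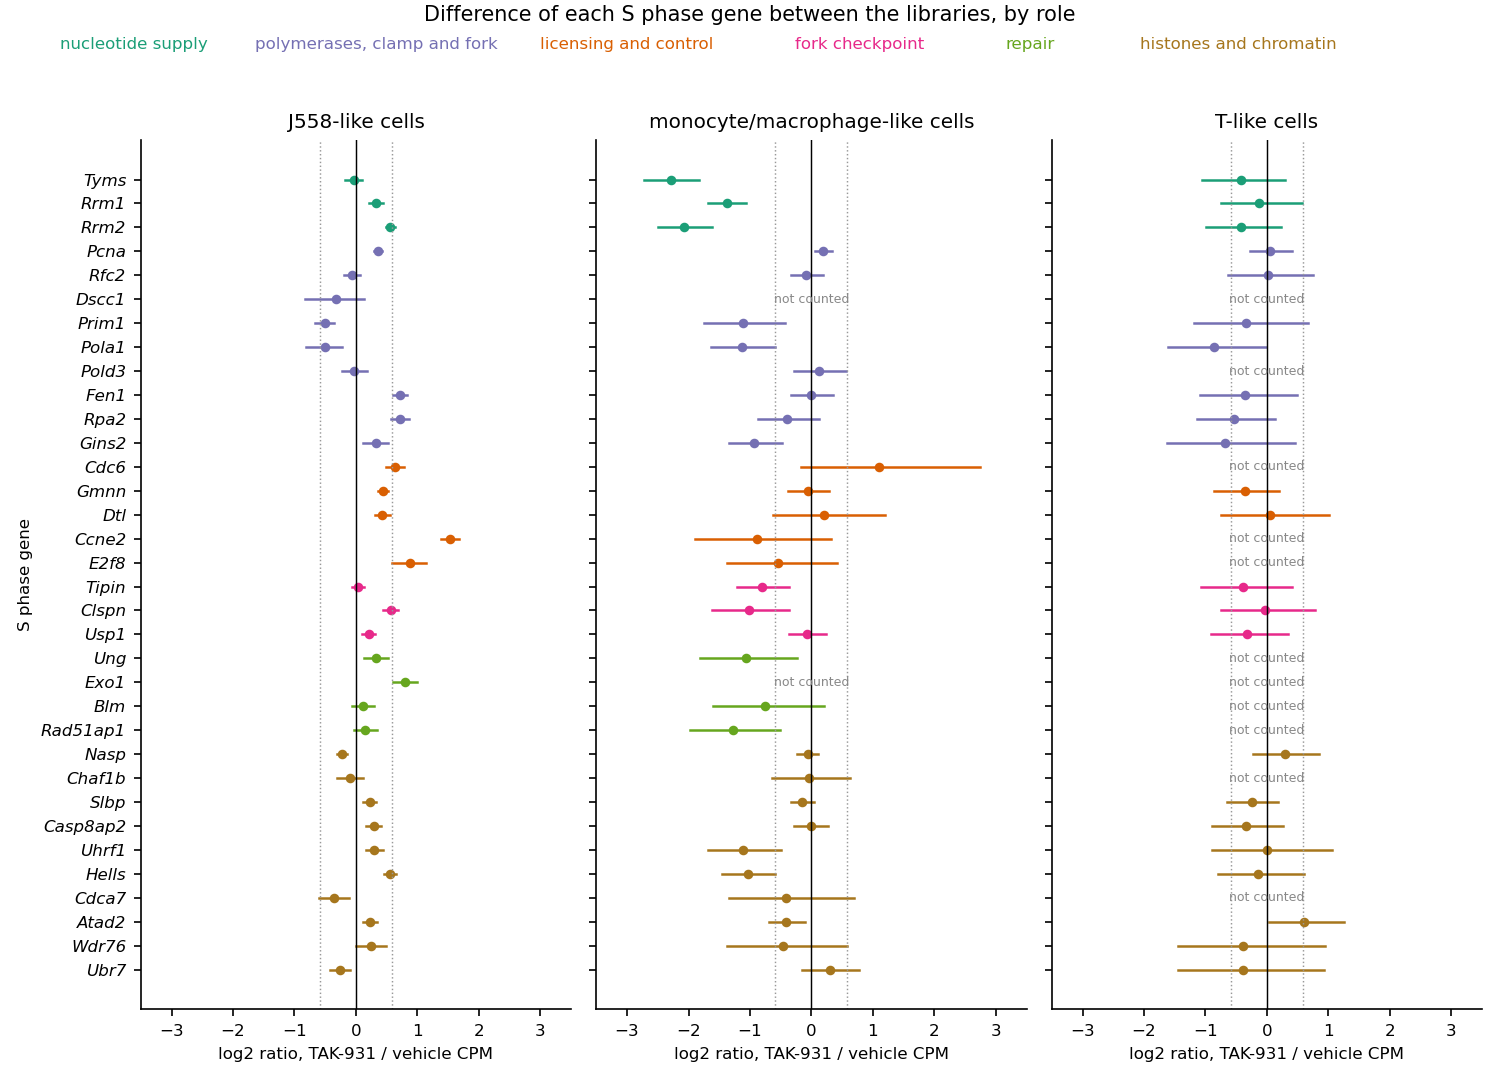
Log2 ratio of CPM, TAK-931 over vehicle, for each S phase gene (x axis) in the 3 main classes, with 95% conditional binomial intervals; dotted lines mark 1.5-fold and genes with fewer than 5 UMIs expected in a library are written as not counted. The licensing and control genes lie right of 0 in J558-like cells, the nucleotide supply genes lie far left of 0 in monocyte/macrophage-like cells, and most T-like intervals cross 0.

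The score gave no order for the monocyte/macrophage-like cells. At 5 of 4000 UMIs, 11.5% (7.65 to 16.4) of vehicle and 16.97% (15.4 to 18.6) of TAK-931 cells were S-high, while the unthinned shares were 9.29% and 6.55% and the shares at 8 were 4.42% and 2.58%. Averaged over all thinnings the shares at 5 were 14.7% and 15.9%. Since the order changed with the cut and with thinning, and the summed level with the cells left out, no difference was read from the share or from the sum. For scale, barcodes of more than 500 but no more than 2000 genes that gated as neutrophils, cells past division, measured 397 CPM (243 to 614) of members in 28 vehicle barcodes and 332 CPM (244 to 441) in 50 TAK-931 barcodes. These values rest on 20 and 47 member UMIs, and free RNA would account for 80.3 and 104 CPM of them. Monocyte/macrophage-like barcodes of the same gene range measured 620 CPM (545 to 703) in vehicle and 608 CPM (567 to 650) in TAK-931. The kept monocyte/macrophage-like cells, which hold more genes, had a pooled level above the neutrophil-like one in both libraries. Their per-cell median was 498 CPM in vehicle and 607 CPM in TAK-931.

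In the TAK-931 library the pooled level of the T-like cells was above that of the tumour cells, while the median cell was below it, at 1378 CPM beside 1736 CPM. Their members summed to 2488 CPM (2460 to 2516), beside 2279 CPM in J558-like cells, and the 50 NK-like cells were at 2558 CPM (2442 to 2677), where 10 cells held 71.4% of the member UMIs and the median cell was at 1257 CPM. The vehicle library held 12 such cells at a level of 2811 CPM (2583 to 3054), which gave a log2 ratio of -0.18 (-0.30 to -0.05). Since 10 of those 12 cells held 98.2% of these UMIs, and since lowering the limit to 1000 genes, which gave 40 and 972 cells, turned the ratio to 0.17, no direction was read. Of the 23 members counted, 5 were higher and 18 lower, beside a median of 0.034 over all 4470 genes counted. Atad2, at 121 CPM (77.5 to 180) and 184 CPM (176 to 191), was the 1 member at least 1.5-fold higher, where 20.4% of all counted genes were. Pola1, at 75.6 CPM (42.3 to 125) and 41.4 CPM (37.9 to 45.2), and Gins2, at 45.3 CPM (20.7 to 86.1) and 28.1 CPM (25.2 to 31.2), were the 2 at least 1.5-fold lower, where 11.9% were. The log2 ratio of Gins2, from 9 vehicle UMIs, had an interval from -1.63 to 0.45 that included 0. That of Pola1, from 15 vehicle UMIs, ran from -1.60 to -0.02. Casp8ap2 measured 136 and 107 CPM, Rpa2 116 and 79.7 CPM, Dtl 60.5 and 62.9 CPM and Rfc2 95.7 and 96.8 CPM, each with a ratio whose interval included 0. The 11 members not counted were Ung, Cdca7, Rad51ap1, Ccne2, Pold3, Cdc6, Exo1, Dscc1, Blm, Chaf1b and E2f8. Monocyte/macrophage markers summed to 45.3 CPM in vehicle T-like cells, with 7 of the 10 at 0 UMIs, and to 177 CPM in TAK-931, and their part in the result was not tested.

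Within the TAK-931 T-like cells the levels by gene can be read without the vehicle cells. Pcna stood first at 378 CPM (367 to 389), followed by Slbp at 217 CPM (209 to 226), Nasp at 191 CPM (183 to 199), Atad2 at 184 CPM and Gmnn at 125 CPM (119 to 132). The intervals of Nasp and Atad2 overlapped and the others did not. Rrm1 and Rrm2 measured 96.6 and 90.7 CPM and Tyms 75.4 CPM, each several times the level in the monocyte/macrophage-like cells of the same library. Dscc1 and Ung were lowest at 8.46 and 5.67 CPM. Of the 652 cells 59.7% (55.8 to 63.5) were S-high, 56.3% without thinning, and by coreceptor transcripts 64.9% (60.5 to 69.1) of 487 CD8 and 42.2% (32.4 to 52.3) of 102 CD4 cells were. In the 50 NK-like cells 62.0% (47.2 to 75.3) were S-high. In vehicle 9 of 12 T-like cells were, an interval from 42.8% to 94.5%, and the difference of -15.3 points had an interval from -31.9 to 13.1.

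In the endothelial-like cells, which line vessels, the members summed to 1121 CPM (1068 to 1177) in vehicle and 853 CPM (821 to 886) in TAK-931, with a log2 ratio of -0.39, and 10 cells held 46.1% of the vehicle and 33.4% of the TAK-931 member UMIs. The 2 libraries shared no cluster in this class: its 79 vehicle cells lay in 1 cluster and its 172 TAK-931 cells in another. In fibroblast-like cells the sums were 614 CPM (566 to 665) and 469 CPM (441 to 499), also -0.39, and 10 cells held 76.1% of the vehicle and 51.8% of the TAK-931 member UMIs. In both classes the nucleotide supply genes were the lowest or, after the repair genes, the next lowest group, with log2 ratios of -0.89 and -2.04. The fibroblast-like value rests on few UMIs, 23 in vehicle and 8 in TAK-931 for Tyms, 58 and 38 for Rrm1 and 29 and 13 for Rrm2. The median over all genes counted was itself below 0 in both, at -0.15 and -0.18. Over all kept cells the members were at 1842 CPM in vehicle and 1267 CPM in TAK-931, and 54.5% and 28.3% of cells were S-high. J558-like cells were 87.6% of kept cells in vehicle and 3.33% in TAK-931, so these totals mix the level in each class with the makeup of the library.

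Members tended to be high in the same cells. The list was cut into 2 sublists of 17 genes, cells were called high on 1 of them, and the other was read. In vehicle J558-like cells the sublist not used stood 2.12 and 2.49 times higher in high cells than in the rest, and in TAK-931 1.87 and 1.94 times. In monocyte/macrophage-like cells it stood 2.55 and 2.92 times higher in vehicle and 1.49 and 1.67 times in TAK-931, and in TAK-931 T-like cells 2.29 and 2.75 times. High cells were also deeper: vehicle J558-like S-high cells had a median of 47508 UMIs and the others 35764.5.

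Single members followed the other sublist to very different extents. The 2 sublists called different cells high, 1807 and 1433 of the 3015 vehicle J558-like cells. Ratios of members from different sublists are therefore not strictly on 1 scale. In vehicle J558-like cells E2f8 stood 5.09 times higher in high cells, Clspn 4.76, Rrm2 4.64, Exo1 4.11 and Dscc1 3.89 times. At the other end were Ubr7 at 1.33, Cdca7 at 1.5 and Ung at 1.73 times. The 17 members that followed most, from 2.32 to 5.09 times, had a log2 ratio of their sums between libraries of 0.41 in J558-like cells, and the 17 that followed least had 0.15. In monocyte/macrophage-like cells the same groups had -0.38 and -0.14, with medians of -0.93 over 15 counted members and -0.08 over 17. In T-like cells the order was the other way, with -0.11 for the members that followed most and -0.24 for those that followed least. The split was made in vehicle J558-like cells, which also enter the first of these comparisons but not the second, and no test was made.

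**Figure D5:**
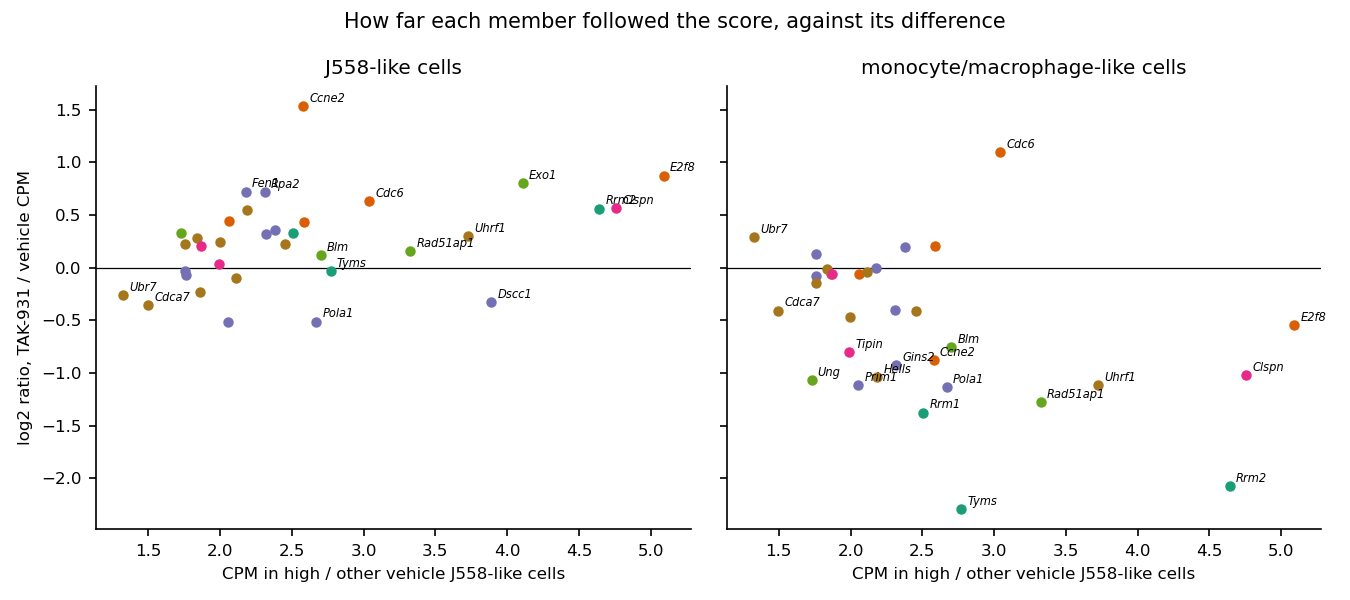
Log2 ratio of each S phase gene between the libraries (y axis) against how many times higher it stood in vehicle J558-like cells that were high for the other sublist (x axis), in J558-like and monocyte/macrophage-like cells; each point is 1 member in the colour of its role, and members not counted are left out. E2f8, Clspn and Rrm2, at 5.09, 4.76 and 4.64 on the x axis, lie above 0 in J558-like and below 0 in monocyte/macrophage-like cells. The x values come from 2 splits of the cells, since each sublist called its own high cells.

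With all cells of a class summed, genes of DNA replication outside the list were also mostly higher in J558-like and mostly lower in monocyte/macrophage-like TAK-931 cells. Of 40 such genes, among them the MCM subunits, further polymerase and clamp loader subunits and E2F factors, 33 were higher and 7 lower in J558-like TAK-931 cells, with 8 at least 1.5-fold higher (Ticrr, Orc1, Tk1, E2f7, Fbxo5, Cdc7, Lig1 and E2f2) and 0 at least 1.5-fold lower. Of all counted genes in the class 51.3% were higher, 14.5% by at least 1.5-fold, and 11.3% were lower by that fold. Cdc7, the target of TAK-931, was itself at 6.77 CPM in vehicle and 11.0 CPM in TAK-931. Their sums gave a log2 ratio of 0.19, beside 0.27 for the members. In monocyte/macrophage-like cells 37 were counted, 30 of them lower, and 21 at least 1.5-fold lower, where 17.2% of all counted genes were, with a log2 ratio of the sums of -0.52. Tk1 and Dut, which like Tyms serve the supply of thymidine nucleotides, had log2 ratios of -1.78 and -1.54 there. In T-like cells 28 were counted, 11 higher and 17 lower. The 52 G2/M genes summed to a log2 ratio of 0.07 in J558-like and -0.70 in monocyte/macrophage-like cells. Neither of these lists was read without the top cells, by depth or by cluster. The members changed direction under such settings, so whether these lists keep theirs was not tested.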

How the data were processed

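The authors prepared 1 single-cell library per group. The deposited matrices hold whole-number counts of UMIs per gene and barcode that the authors did not normalize. The submitters' processing notes name Cell Ranger 6.0.0 and the genome build mm10. Depth and precision are given with the libraries in the report.

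From the deposited counts, cells were retained at more than 2000 genes if mitochondrial UMIs stayed under 15%. Each cell was scored on 10 marker lists as the mean of its 3 highest log values per 10000 UMIs, and it joined the class of its highest list if that score was at least 0.5 and at least 1.5 times the next. Cells under 1.5 times were left out as holding 2 lineages (64 vehicle and 226 TAK-931 cells), and no doublet caller was run. UMIs were summed per library and class and given as CPM. Thinning used seed 1. Members, lists and gates were chosen with earlier results of these data known, and nothing here supports a pattern independently. Named in each main class were the 5 members with the highest vehicle CPM and the 5 highest and 5 lowest log2 ratios, and every other member at least once. Intervals and thinning were tested on simulated data. Alternatives covered cell filters, class assignment (Leiden clusters with scanpy 1.11.5), scaling, free RNA, cuts of the score and cells with the most member UMIs. Python 3.11.15, numpy 2.4.6 and scipy 1.17.1 were used.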

Additional observations from a re-analysis of the deposited data

Results flagged for a closer look

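The summed level of the S phase genes stood on opposite sides of 0 in different classes of the same pair of libraries. On the log2 scale, the ratio between the libraries (TAK-931 over vehicle) was 0.27 in J558-like cells, -0.23 in monocyte/macrophage-like cells, -0.18 in T-like cells, -0.39 in endothelial-like cells and -0.39 in fibroblast-like cells (-0.395 and -0.387 before rounding). With 1 library per group the difference was not tested. Several of these directions changed with the cells taken. In J558-like cells the value was -0.30 at 40000 to 60000 UMIs. In the T-like cells the vehicle value came from 12 cells and the value at over 1000 genes was 0.17, and in the monocyte/macrophage-like cells the value without the 10 cells with the most member UMIs was 0.14, and 0.06 without the top 5% of cells of each library.

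T-like barcodes that the cell filter left out, with over 500 and at most 2000 genes, also carried the members. They measured 1120 CPM (1067 to 1175) in 351 TAK-931 barcodes and 857 CPM (713 to 1022) in 42 vehicle barcodes. In TAK-931 this is under the 2488 CPM of the kept T-like cells and above the 332 CPM of the neutrophil-like barcodes of the same depth range.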

How the results depend on the processing

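The summed level of the S phase genes in J558-like cells (log2 ratio 0.27) was 0.29 with Leiden clusters, 0.24 scaled by the median ratio, 0.14 without the 10 cells with the most member UMIs, 0.33 without the top 5%, 0.24 in cells under 100 CPM of T cell markers and 0.37 in cells with 60000 to 100000 UMIs, and it turned to -0.30 at 40000 to 60000 UMIs. In monocyte/macrophage-like cells (-0.23) it was -0.0899 with Leiden clusters, -0.0073 as the mean of each cell's CPM, -0.13 scaled by the median ratio, -0.17 with free RNA subtracted and -0.44 as the median over members, and it turned to 0.14 without the 10 top cells and to 0.0634 without the top 5%. In T-like cells (-0.18) it was -0.0233 scaled by the median ratio and -0.34 as the median, and turned to 0.17 at over 1000 genes and to 2.06 without the 10 top cells, which leaves 2 vehicle cells. Over all kept cells (-0.54) it was -0.55 at over 1000 genes, -0.52 under 10% mitochondrial UMIs, -0.71 as the mean of each cell's CPM, -0.70 scaled by the median ratio -0.58 without the 10 top cells and -0.90 without the top 5%. The difference in S-high share in J558-like cells (20.6 points) was 11.0 at over 1000 genes, 11.1 at a cut of 3, 9.64 at a cut of 8 and 1.5 at 40000 to 60000 UMIs, where the share averaged over all thinnings differed by -14.8. In monocyte/macrophage-like cells (5.46 points) it was 10.3 at a cut of 3 and turned to -1.84 at a cut of 8, -2.00 when thinned to 8000 UMIs, -2.75 without thinning and -3.32 under 10% mitochondrial UMIs. In T-like cells (-15.3 points) it was 13.2 at over 1000 genes. Members past 1.5-fold numbered 6 higher in J558-like cells and 1 at a fold of 2. In monocyte/macrophage-like cells 1 higher and 14 lower became 0 and 4 with at least 20 UMIs expected, a setting that counts fewer members. In T-like cells 1 higher became 0 at a fold of 2, and 2 lower became 0 under both settings. Without the 10 top cells, in monocyte/macrophage-like cells, Rad51ap1 turned to 0.35, Atad2 to 0.19, the fork checkpoint group to 0.0776 and the histone and chromatin group to 0.14, and without the top 5% these groups turned to 0.0100 and 0.0640. Leaving out 10 cells takes unequal shares of the classes, so that setting lowers the library with fewer cells more by construction, and the cause of the other changes was not tested. The top 5%, the averages over all thinnings, the ranges of UMIs, the T cell marker limit and the values of role groups were chosen after seeing the data. Free RNA was not subtracted in J558-like cells, whose own transcripts are the gauge, and that alternative was not run. No paired analysis was possible because each group has 1 library. The 12 vehicle T-like and 116 TAK-931 J558-like cells limit what depth can show.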
